A study of Sus scrofa with 8 samples.

Results

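Steroid hormone receptors were measured at the RNA level in the olfactory epithelium (OE) of sows, the nasal tissue that meets the boar pheromone androstenone, itself a steroid. The set held 9 genes, chosen by their Ensembl pig gene names among the 22516 genes of the files: the estrogen receptor genes ESR1, ESR2 and GPER1, the progesterone receptor genes PGR, PGRMC1 and PGRMC2, the corticosteroid receptor genes NR3C1 and NR3C2, and NR1I3. All 9 had at least 1 count and entered the test. The rule for membership is by name and sets no threshold on a measured value.

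Nuclear steroid receptors are transcription factors that wait for a ligand in the cytoplasm or nucleus, bind DNA once it arrives, and recruit coactivators or corepressors to their target genes. Membrane steroid receptors instead act at the cell surface or on internal membranes within seconds to minutes. In nasal tissue, the glucocorticoid receptor is the target of steroid sprays, and the mineralocorticoid receptor is known from epithelia that absorb sodium.

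The 8 libraries came from 4 sows aged 8 months, crosses of a Landrace boar with a Rongchang sow, all of them in estrus. In the androstenone treatment group, Boarmate, a spray that mainly contains androstenone, was applied to the nasal cavity of 2 sows, and the OE was taken 30 min later. The control group held 2 sows that received no spray, not even the carrier, so androstenone cannot be told apart from the other parts of the spray or from the act of spraying. The left and right OE of each sow gave separate libraries, 4 per group, and the labels do not tie libraries to sows. The p-values therefore measure the spread between libraries and count 2 animals per group as 4 replicates.

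The deposited counts summed to 4178330 in control 1 and to between 81580146 and 100685566 in the other 7 libraries. The clean reads listed for control 1 are about as many as for the others, so the low total appears in the deposited counts but not in the number of clean reads. The share of reads assigned to transcripts is not given, and the reason for the low total was not tested. Counting intervals below take the deposited counts as they are, which makes those of control 1 the widest. Of the 9 genes tested from a list for olfactory sensory neurons, some were scarce and others were not. GNG13, the gamma subunit of their G protein, lay between 0.0327 and 0.205 CPM (counts scaled to the library total), RTP1, which carries odorant receptors to the membrane, at 0.109 CPM or below, and the channel subunit CNGA2 between 0.737 and 12.2 CPM. CNGA4, another channel subunit, and GAP43, a protein of growing axons, stayed at 1.70 CPM or below. GNAL, the G protein alpha subunit, lay between 1.46 and 21.96 CPM, and ADCY3, the adenylyl cyclase of the same cascade, between 18.01 and 43.3 CPM. ANO2, a chloride channel, lay between 19.0 and 292 CPM and STOML3, a stomatin-like membrane protein, between 48.8 and 224 CPM. RTP2 had no count in any library, and OMP was not matched by name. The summed CPM of 9 genes of motile cilia, known from respiratory epithelium, was 3496 in control 3, 2568 in androstenone 1 and 2808 in androstenone 2, against 1513 in control 1, with the remaining 4 at 679 to 849. STOML3 was highest in the same 3 libraries as these genes. The list thus gave no single answer on the labelled tissue. In bulk tissue, fewer cells of a type and less RNA per cell cannot be told apart.

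Levels of different genes were compared in TPM, the share of a library's transcripts after scaling for transcript length. PGRMC1 was the most abundant of the receptors, at 229 ± 67.9 TPM (SD, n = 8 libraries), higher than 97.7% of the genes with any count. PGRMC2 followed at 43.0 ± 10.9 TPM, NR3C1 at 14.2 ± 5.63 TPM and NR3C2 at 5.70 ± 2.24 TPM (SD, n = 8 each). ESR1 was at 2.68 ± 0.885 TPM, GPER1 at 2.26 ± 1.29 TPM, NR1I3 at 2.16 ± 2.40 TPM and ESR2 at 0.536 ± 0.313 TPM. PGR closed the order at 0.00989 ± 0.00942 TPM, above 2.94% of the genes with any count.

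Some steps in this order were clear of the spread between libraries and others were not. The range of PGRMC1 over the 8 libraries lay above that of PGRMC2, PGRMC2 above NR3C1, NR3C2 above ESR1, and ESR2 above PGR, with no overlap. NR3C1 exceeded NR3C2 in 7 of 8 libraries, and in androstenone 2 the order turned. ESR1, GPER1 and NR1I3 overlapped, with ESR1 above GPER1 in 5 of 8 libraries and GPER1 above NR1I3 in 6 of 8. NR1I3 exceeded ESR2 in 7 of 8 libraries, and their ranges overlapped as well. Of the summed TPM of the 9 genes, PGRMC1 took between 63.6% in control 4 and 85.6% in androstenone 2.

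**Figure D1:**
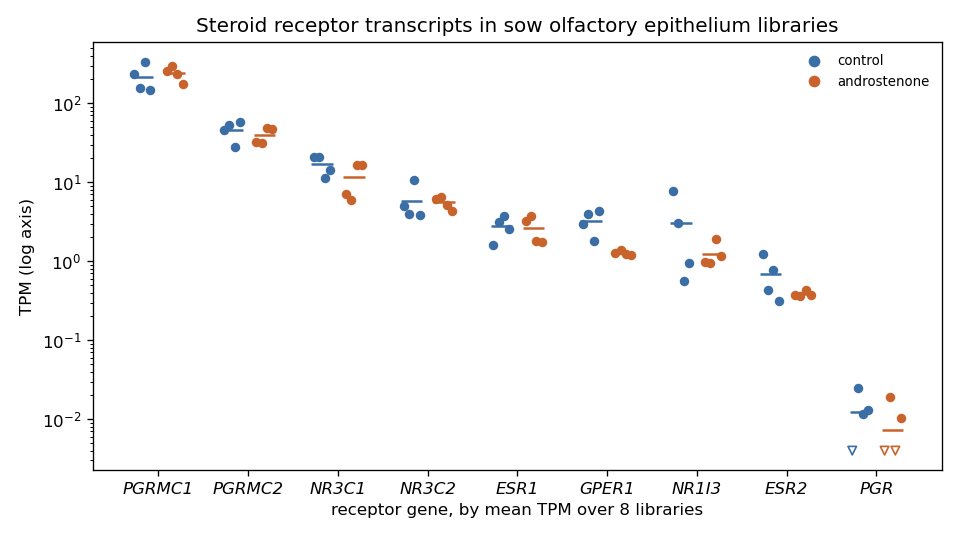
TPM on a log axis of the 9 receptor genes in the 4 control libraries (blue) and the 4 androstenone libraries (orange), with horizontal lines at the group means. Open triangles mark the 3 libraries in which PGR was listed at 0. PGRMC1 lies above 140 TPM in every library, PGR below 0.03 TPM, and GPER1 is the gene whose groups do not overlap.

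For the comparison of the groups, CPM were taken from library totals multiplied by TMM factors, which discount a few dominant genes. Of the 9 receptor genes, 1 passed the study's cutoff, an unadjusted p below 0.05 together with a log2 fold change of 1 or more in size, and that gene, GPER1, was lower in the androstenone treatment group. Over all 21318 genes tested, 6.42% passed the same cutoff, 4.38% as lower and 2.04% as higher in the androstenone treatment group, so that 1 of 9 is close to the background. After Benjamini-Hochberg adjustment over all genes, 0 receptors and 0 genes passed in edgeR's quasi-likelihood test, although 2415 genes had an unadjusted p below 0.05. With the same adjustment, DESeq2 called 670 genes, edgeR's likelihood ratio test 200, its exact test 157 and limma voom 0. The median log2 fold change of the 9 genes was -0.43, against -0.021 over all genes tested.

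GPER1 (ENSSSCG00000026422) encodes a G protein-coupled receptor that responds to estrogens within minutes, and RefSeq places it on chromosome 3 of Sscrofa11.1 from 711427 to 715982. In the control libraries 1 to 4 it was at 3.29, 4.38, 2.06 and 6.33 CPM. In the androstenone libraries 1 to 4 it was at 1.75, 1.76, 1.62 and 1.48 CPM. The androstenone libraries were close together and all lay below the lowest control library, whereas the control libraries were spread widely. GPER1 was the 1 receptor of 9 without overlap, where 6.53% of all genes tested separated in either direction and 2.64% in this one.

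The group means of GPER1 were 4.01 ± 1.81 CPM and 1.65 ± 0.131 CPM (SD, n = 4 libraries each). The log2 fold change was -1.29 (standard error 0.36, 95% interval -2.10 to -0.48, unadjusted p = 0.00607 and adjusted p = 0.393 in edgeR's quasi-likelihood test). DESeq2 gave an adjusted p of 0.0214, and over all alternatives the adjusted p ranged from 0.0214 to 0.893. Counting error alone left some libraries of the 2 groups unresolved. The 197 counts in control 3 gave a 95% exact Poisson interval of 1.78 to 2.36 CPM, and 172 counts in androstenone 2 gave 1.51 to 2.05 CPM. Control 1 rested on 16 counts, with an interval of 1.88 to 5.34 CPM. That interval also overlapped those of androstenone 1, 2 and 3, which reached 2.04, 2.05 and 1.91 CPM.

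The highest GPER1 levels were in control 4 and control 2, the libraries with the largest summed CPM of bone genes. All 9 genes of the bone list passed the same unadjusted cutoff as lower in the androstenone treatment group, where 4.38% of all genes tested did. Among them were COL1A1, the main collagen of bone matrix, and IBSP and BGLAP, which osteoblasts secrete. None of the 9 bone genes was at 0 in any library. Their summed CPM was 3667, 13183, 3875 and 168567 in control 1 to 4 and 1269.8, 4611, 2103 and 2122 in androstenone 1 to 4. Control 4 thus held far more bone RNA than any other library, and the order of GPER1 in the controls put control 4 first and control 2 next. Over the 8 libraries, Pearson's r between the log2 CPM of GPER1 and the log2 bone sum was 0.89, a description of libraries that share 4 sows.

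Without control 4, the log2 fold change of GPER1 was -0.97 (unadjusted p = 0.0144 from edgeR's quasi-likelihood test), below the cutoff on fold change. With the bone sum as a covariate, a fit added after seeing the data, it was -0.63 (unadjusted p = 0.103), and with the ciliated cell sum as a covariate it was -1.14 (unadjusted p = 0.00873). The part of bone RNA in the difference was not tested beyond these fits. The 9 bone genes were lower on average in the androstenone treatment group, so bone RNA and treatment were partly aligned. Of these genes, 0 separated the groups without overlap, where 2.64% of all genes tested did in this direction. The bone sum of androstenone 2, 4611 CPM, exceeded those of control 1 and control 3, 3667 and 3875 CPM.

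**Figure D2:**
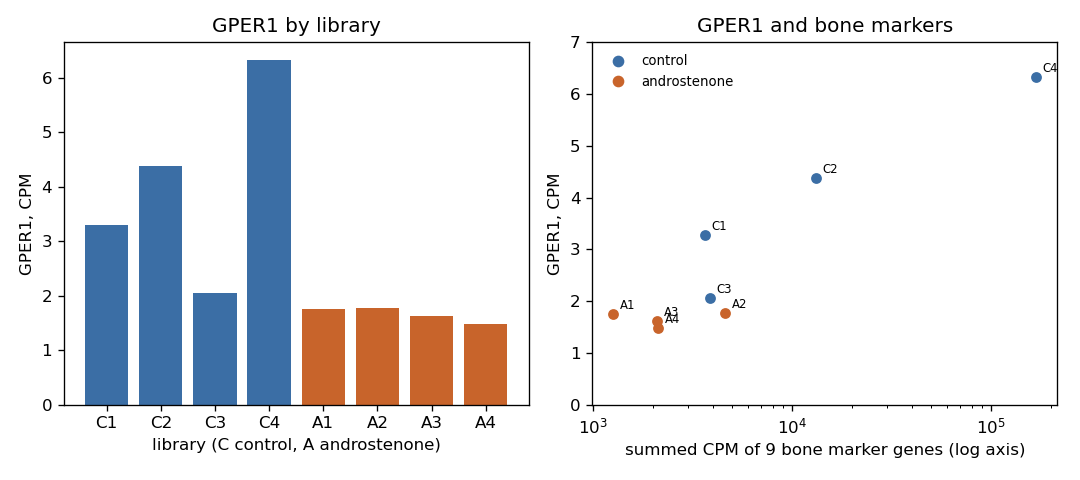
Left, GPER1 in CPM in each library (bars, C control and A androstenone). Right, GPER1 in CPM against the summed CPM of 9 bone genes on a log axis, 1 point per library. The 4 androstenone libraries sit between 1.48 and 1.76 CPM, and control 4, at 6.33 CPM, has the highest bone sum.

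GPER1 lies within the span of another gene, C7orf50, named C3H7orf50 in RefSeq, and the sources used here do not say whether counting used strand. Reads were assigned to transcripts, and whether these genes share transcript sequence was not examined. C7orf50 stood at 23.2 ± 11.3 CPM in controls and 36.4 ± 11.8 CPM after androstenone (SD, n = 4 libraries each). Its log2 fold change of 0.64 was opposite in sign to that of GPER1 and did not pass (unadjusted p = 0.111 in edgeR's quasi-likelihood test).

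The nuclear estrogen receptors did not pass the test. ESR1, estrogen receptor alpha (chromosome 1, 14217032 to 14604906), was at 5.34, 10.6, 12.7 and 11.1 CPM in control 1 to 4 and at 13.0, 14.3, 7.02 and 6.44 CPM in androstenone 1 to 4. Both groups held high and low libraries and overlapped almost fully. Its log2 fold change was 0.027 with a 95% interval of -0.80 to 0.86, so that a change of either sign within that interval was not excluded.

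ESR2, estrogen receptor beta (chromosome 1, 193823666 to 193907330), was at 2.88, 1.01, 1.89 and 0.962 CPM in the control libraries and at 1.06, 0.974, 1.17 and 0.985 CPM in the androstenone libraries. The androstenone libraries were within 0.2 CPM of each other, and the overlap came from control 2 and control 4. Its log2 fold change was -0.61 (95% interval -1.51 to 0.28, unadjusted p = 0.152 in edgeR's quasi-likelihood test). The highest value, in control 1, rested on 14 counts (95% exact Poisson interval 1.57 to 4.82 CPM, counting error only), and without that library the log2 fold change was -0.30. With the bone sum as a covariate it was -1.11 (unadjusted p = 0.0215).

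Among the progesterone receptors, the classical nuclear receptor was barely detected while its membrane-associated namesakes were abundant. PGR (chromosome 9, 32035684 to 32129776) had rounded counts of 0, 6, 3 and 3 in control 1 to 4 and 0, 6, 0 and 3 in androstenone 1 to 4. A 0 in control 1 allows up to 0.718 CPM of the library total, from 3 counts in the library, far above the level measured in any other library. The 9 counts of the androstenone libraries against 12 in the controls gave, relative to library totals multiplied by TMM factors, a ratio of 0.506 (exact 95% interval from counting alone, 0.188 to 1.31), and no difference was detectable with these counts.

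PGRMC1 and PGRMC2 encode heme-binding proteins of internal membranes that were named for progesterone binding and are also partners of cytochrome P450 enzymes. PGRMC1 (chromosome X, 97735402 to 97743424) was at 252, 166, 368 and 203 CPM in control 1 to 4 and at 330, 369, 295 and 206 CPM in androstenone 1 to 4. The highest levels, in control 3, androstenone 1 and androstenone 2, came from both groups. Its log2 fold change was 0.28 (95% interval -0.39 to 0.95, unadjusted p = 0.365 in edgeR's quasi-likelihood test), and it was 0.13 without control 2 and 0.54 without control 3.

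PGRMC2 (chromosome 8, 96692823 to 96710218) was at 34.9, 39.8, 21.7 and 56.2 CPM in the control libraries and at 29.7, 27.3, 43.1 and 39.8 CPM in the androstenone libraries. It was lowest in the 3 libraries in which PGRMC1 was highest. Between the groups PGRMC2 differed by a log2 fold change of -0.13 (95% interval -0.80 to 0.55, unadjusted p = 0.678).

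The corticosteroid receptors did not pass either. NR3C1, the glucocorticoid receptor (chromosome 2, 144822937 to 144956451), was at 85.5, 83.1, 47.0 and 74.5 CPM in control 1 to 4 and at 35.2, 28.1, 77.0 and 74.2 CPM in androstenone 1 to 4. Control 3, androstenone 1 and androstenone 2 were the low libraries, and the other 5 lay between 74.2 and 85.5 CPM. For NR3C1 this gave a log2 fold change of -0.43 (95% interval -1.27 to 0.40, unadjusted p = 0.267 in edgeR's quasi-likelihood test).

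NR3C2, the mineralocorticoid receptor (chromosome 8, 80303172 to 80669050), was at 12.9, 10.1, 27.9 and 12.6 CPM in the control libraries and at 19.1, 19.4, 15.1 and 12.3 CPM in the androstenone libraries. Control 3 stood far above the other controls, and androstenone 1 and androstenone 2 led their group. The log2 fold change was 0.049 (95% interval -0.73 to 0.83, unadjusted p = 0.89 in edgeR's quasi-likelihood test).

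NR1I3, the constitutive androstane receptor, is a nuclear receptor of xenobiotic metabolism best known from liver and named for its binding of androstane steroids. It lies on chromosome 4 from 89226314 to 89231781, where its RefSeq span overlaps TOMM40L. It was at 11.5, 4.38, 0.824 and 1.79 CPM in control 1 to 4 and at 1.71, 1.62, 3.20 and 1.90 CPM in androstenone 1 to 4. The controls held both the highest and the lowest libraries, so that the androstenone libraries fell inside their range. In TPM its highest library was 14.1 times its lowest, against 2.05 to 3.89 times for the other receptors except PGR, which was listed at 0 in some libraries.

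The log2 fold change of NR1I3 was -1.06 (95% interval -2.73 to 0.61, unadjusted p = 0.183 in edgeR's quasi-likelihood test). Control 1, with 56 counts (95% exact Poisson interval 8.69 to 14.9 CPM), carried most of it, and without control 1 the log2 fold change was -0.15. Without control 3 it was -1.43 and passed the unadjusted cutoff in edgeR's quasi-likelihood test. TOMM40L, a mitochondrial import gene, was even across the libraries at 14.7 to 22.5 CPM.

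**Figure D3:**
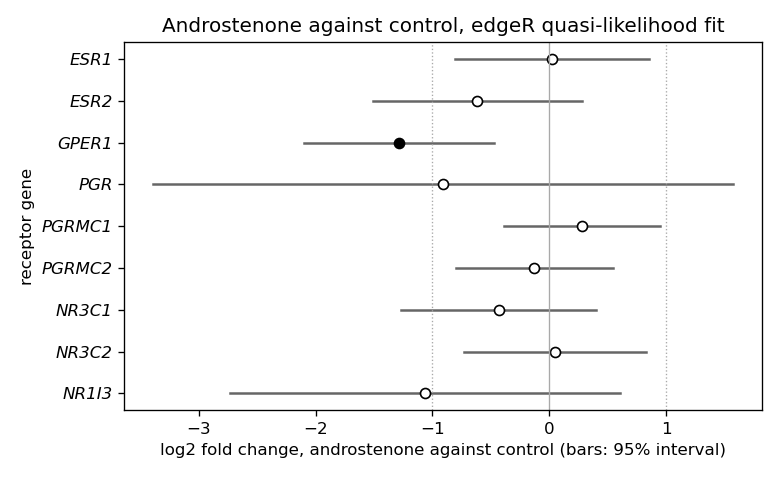
Log2 fold change of each receptor gene in the androstenone treatment group against the control group (points) with its 95% interval (bars), from edgeR's quasi-likelihood fit; dotted lines mark a log2 fold change of -1 and 1. GPER1, the filled point at -1.29, is the gene whose libraries do not overlap between the groups and whose interval lies below 0.

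Plain ratios within a library do not depend on how libraries are scaled. The log2 ratios below have 0.1 TPM added to each gene, which matters most where levels are low. The ratio of NR3C1 to NR3C2 in TPM was 4.20, 5.19, 1.06 and 3.74 in control 1 to 4, and 1.16, 0.916, 3.22 and 3.82 in androstenone 1 to 4. The mean log2 ratio was 1.59 ± 1.02 in controls and 0.92 ± 1.02 after androstenone (SD, n = 4 libraries each, two-sided exact permutation test over 70 assignments, p = 0.257, adjusted over the 3 ratios 0.571). The ratio of PGRMC1 to PGRMC2 ran from 2.55 in control 4 to 11.9 in control 3, with a mean log2 ratio of 2.20 ± 1.01 against 2.59 ± 0.633 (exact permutation test, p = 0.571, adjusted 0.571). The ratio of ESR1 to ESR2 ran from 1.31 in control 1 to 10.3 in androstenone 2, with means of 1.94 ± 1.08 against 2.42 ± 0.607 (exact permutation test, p = 0.543, adjusted 0.571). The spread of each ratio within a group was wider than the difference between the groups. Single libraries moved these differences: that of NR3C1 to NR3C2, -0.67, was -1.17 without control 3 and -0.33 without androstenone 2, and that of PGRMC1 to PGRMC2, 0.38, was 0.84 without control 3 and 0.099 without control 4.

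The levels of 4 receptors varied across the libraries with the RNA of motile cilia. Over the 8 libraries, Pearson's r with the log2 summed CPM of the ciliated cell genes was 0.88 for PGRMC1 and 0.90 for NR3C2, and -0.91 for PGRMC2 and -0.82 for NR3C1. PGRMC1 and NR3C2 had an r of 0.92 with each other, and each was negatively related to PGRMC2 and NR3C1 (r between -0.82 and -0.74). The same 4 receptors also varied with the log2 sum of 6 endothelial genes, which ran from 56.9 CPM in control 3 to 524 CPM in control 4. PGRMC2 and NR3C1 had r of 0.94 and 0.86 with it, and PGRMC1 and NR3C2 had r of -0.80 and -0.84. GPER1 had an r of 0.83 with 7 fibroblast genes, a list that holds COL1A2, a collagen chain that bone also makes, and PGRMC2 an r of 0.92 with 7 macrophage genes. ESR1 had an r of 0.77 with the sum of 8 nasal gland genes and -0.83 with that of 3 basal cell genes. Spearman's rho, the correlation of ranks, was 0.93 for PGRMC1, 0.98 for NR3C2, -0.79 for PGRMC2 and -0.60 for NR3C1 with the ciliated cell sum. With the endothelial sum it was 1 for PGRMC2, 0.52 for NR3C1, -0.74 for PGRMC1 and -0.71 for NR3C2. It was 0.40 for GPER1 with the fibroblast sum and 0.88 for PGRMC2 with the macrophage sum. For ESR1 it was 0.67 with the gland sum and -0.83 with the basal cell sum. The fibroblast sum was 194700 CPM in control 4, against 1333 to 25486 CPM elsewhere. These values are descriptions over 8 libraries that share sows and total counts, and the part of cell makeup in any receptor's level was not tested. The pairs named are a selection from all pairs of receptor and cell type list.

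None of the 9 ciliated cell genes and none of the 6 endothelial genes passed the unadjusted cutoff between the groups. Of the 8 nasal gland genes, 1 passed as higher and 1 as lower, and of the 7 fibroblast genes 2 passed as lower. Of the 9 tested genes of olfactory sensory neurons 1 passed as lower. Over all genes tested, 2.04% passed as higher and 4.38% as lower. No gene passed among 3 of basal cells, 5 of T cells, 6 of B and plasma cells, 7 of macrophages and 5 of hepatocytes. In the hepatocyte list, ALB was at 1.85 CPM or below and TTR at 0.306 CPM or below, while APOA1 lay between 4.00 and 183 CPM, SERPINA1 between 3.89 and 42.8 CPM and FGB between 1.10 and 3.32 CPM. All 5 had a log2 fold change below 0, and FGB did not overlap between the groups, as for 2.64% of all genes in this direction. The log2 sum of this list, which ran from 14.9 to 205 CPM, had an r of 0.93 with NR3C1 over the 8 libraries. With other receptors it had r of 0.83 for PGRMC2, -0.88 for NR3C2, -0.82 for PGRMC1 and -0.72 for ESR1. For NR1I3 r was 0.67 and Spearman's rho 0.88, and for GPER1, ESR2 and PGR r was 0.42, -0.013 and -0.17. Its part in the level of any receptor was not tested.

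**Figure D4:**
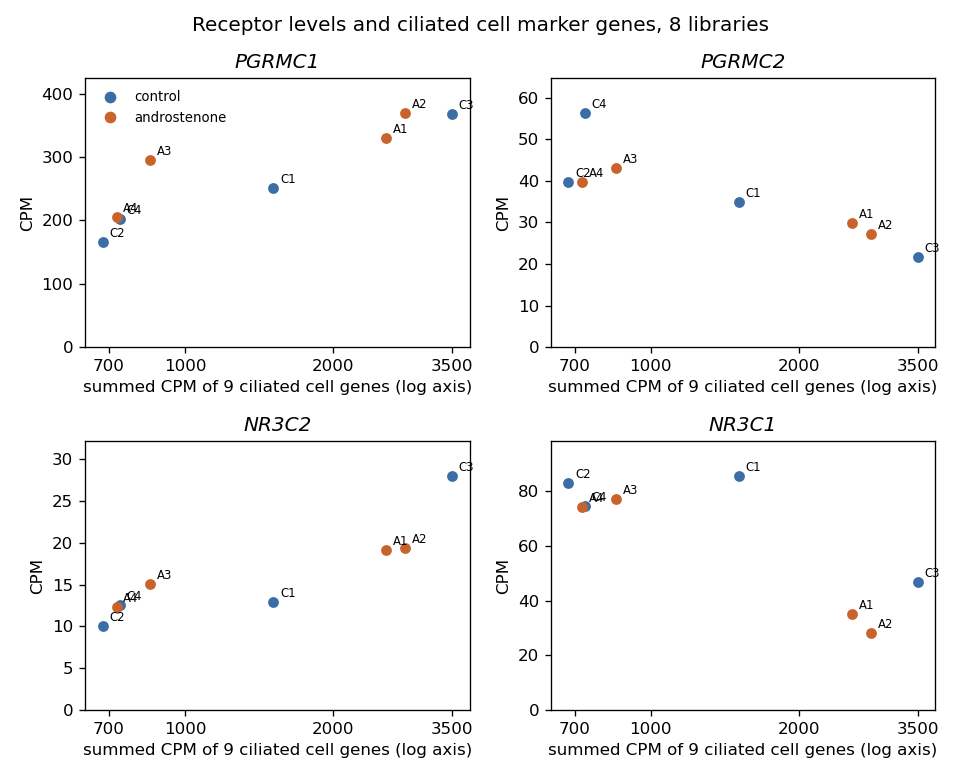
CPM of PGRMC1, PGRMC2, NR3C2 and NR3C1 (vertical axes, from 0) against the summed CPM of 9 ciliated cell genes (horizontal axes, log), 1 point per library, C control and A androstenone. Control 3, androstenone 1 and androstenone 2 form the right end of each panel, where PGRMC1 and NR3C2 are high and PGRMC2 and NR3C1 are low.

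The genes most alike in pattern were taken from 13449 named genes with a mean of at least 1 CPM, by Pearson's r of log2 CPM over the 8 libraries. They were BFAR, ANPEP and USP35 for GPER1 (r = 0.99 for each), POLR3B, SMPD4 and COIL for ESR1 (0.98, 0.97 and 0.97) and MIEN1, VPS50 and MPIG6B for ESR2 (0.97, 0.95 and 0.94). For PGRMC1 they were CUEDC1, PAIP2 and ATP1B1 (0.99, 0.99 and 0.98), and for PGRMC2 they were PLEKHG5, NEK6 and SHC1 (0.99 for each). For NR3C1 they were CBX6, ZNF333 and SHROOM4 (r = 0.99 for each), for NR3C2 FAM81B, RAB15 and SPATA7 (0.99 for each), and for NR1I3 BRD1, NFE2 and PHYKPL (0.96, 0.96 and 0.95). These are the highest values among all candidates, given as a description.

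Of 12 related nuclear receptors and partners, 2 passed the unadjusted cutoff, both as lower in the androstenone treatment group, where 4.38% of all genes did, and neither passed after adjustment. RXRG, a retinoid X receptor that pairs with NR1I3 and other nuclear receptors, was at 0.616, 0.600, 1.95 and 0.782 CPM in control 1 to 4 and at 0.220, 0.267, 0.167 and 0.219 CPM in androstenone 1 to 4. The groups differed by -2.22 on the log2 scale, with a standard error of 0.47 (adjusted p = 0.378 in edgeR's quasi-likelihood test). NR1H4, the bile acid receptor, was at 1.05 ± 0.336 CPM against 0.453 ± 0.142 CPM (SD, n = 4 each), which is -1.16 on the log2 scale with a standard error of 0.38 (edgeR adjusted p = 0.416). The groups did not overlap for either gene, as for 2.64% of all genes in this direction. In control 1, RXRG rested on 3 counts and NR1H4 on 7, and counting intervals were not computed for these genes. RXRA and RXRB, the more abundant partners, were at 33.8 and 25.1 TPM on average, against 0.525 TPM for RXRG, and did not pass (log2 fold changes of -0.20 and -0.16).

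Receptor chaperones hold the unliganded receptors in a form that can bind hormone, and the immunophilins FKBP4 and FKBP5 tune that step. Of 11 such genes, 0 passed the unadjusted cutoff, and 10 had a log2 fold change above 0, with a median of 0.26. HSP90AB1 was at 679 ± 52.9 CPM against 816 ± 46.3 CPM (SD, n = 4 each). Its groups did not overlap, as for 3.89% of all genes in this direction. The log2 fold change of 0.26 did not pass (unadjusted p = 0.169 in edgeR's quasi-likelihood test). FKBP4 was at 162 ± 39.1 CPM against 243 ± 116 CPM (unadjusted p = 0.147). The summed CPM of the list was highest in androstenone 2, androstenone 1 and control 3, at 7190, 6780 and 5713 CPM, and ran from 2903 to 3422 CPM in the other 5 libraries.

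Of 13 coactivators and corepressors, 0 passed the cutoff, with a median log2 fold change of 0.0076. KAT2B, a histone acetyltransferase, was at 55.9 ± 2.94 CPM against 39.1 ± 5.30 CPM without overlap (SD, n = 4 each), and its log2 fold change of -0.51 was below the cutoff on size. PELP1, a coactivator of estrogen receptors, was at 61.9 ± 8.25 CPM against 80.2 ± 5.14 CPM, also without overlap, a log2 fold change of 0.37. Over all genes tested, 2.64% separated as lower and 3.89% as higher in the androstenone treatment group. EP300, CREBBP and NCOR1 had log2 fold changes of 0.0076, -0.049 and -0.11.

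Of 6 other membrane progestin receptors and relatives of the PGRMC genes, 0 passed the cutoff and 5 had a log2 fold change below 0. PAQR5 and PAQR6, which encode progestin receptors of the cell surface, were at 0.965 and 15.2 TPM on average and had log2 fold changes of -0.58 and -0.25. NENF, a secreted relative of PGRMC1, was the most abundant of the list at 56.8 TPM.

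Targets and partners of the receptors were counted in the same way. The mineralocorticoid pathway list held 9 genes, which move sodium across epithelia or control access of cortisol to NR3C2. All 9 had a log2 fold change above 0 (median 0.45, against -0.021 over all genes tested), and 0 passed the cutoff. The summed CPM of the list was highest in androstenone 2, androstenone 1 and control 3, at 2025, 1908 and 1786 CPM. It ran from 857 to 1621 CPM in the remaining libraries. Control 3, androstenone 1 and androstenone 2 also held the largest sums of ciliated cell genes, and that link was not tested. HSD11B1, which regenerates active cortisol, was at 32.9 ± 14.4 CPM against 54.7 ± 25.7 CPM (SD, n = 4 each, unadjusted p = 0.121). SGK1, a kinase induced by both corticosteroid receptors, was at 107 ± 4.39 CPM against 122 ± 14.2 CPM (unadjusted p = 0.201).

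Of 10 glucocorticoid receptor targets, 0 passed and 7 had a log2 fold change below 0, with values of -0.99 for ERRFI1 (unadjusted p = 0.0822) and -1.04 for CDKN1C (unadjusted p = 0.125). ERRFI1 was at 8.01, 8.12, 13.6 and 38.4 CPM in control 1 to 4, against 7.30 to 9.34 CPM after androstenone. CDKN1C was at 6.16, 11.5, 1.82 and 14.2 CPM in control 1 to 4, against 2.29 to 6.26 CPM after androstenone. Control 4, the highest library for both genes, also had the highest bone sum. FKBP5 was level between the groups at 34.0 ± 16.7 CPM against 33.4 ± 6.02 CPM. Of 11 estrogen and progesterone receptor targets, PGR among them, 0 passed, with log2 fold changes of -1.36 for GREB1 (unadjusted p = 0.0720) and -2.26 for TFF1 (unadjusted p = 0.214), whose controls ranged from 0 to 3.70 CPM. Of the 5 xenobiotic targets of NR1I3 and its relative NR1I2 that were matched by name, 0 passed. ALAS1, the entry enzyme of heme synthesis, was at 76.8 ± 19.3 CPM against 111 ± 15.5 CPM, a log2 fold change of 0.54 (unadjusted p = 0.0314), and SULT2A1, which sulfates steroids, had a log2 fold change of 0.96 (unadjusted p = 0.0683). All p-values here are from edgeR's quasi-likelihood test over all genes.

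**Figure D5:**
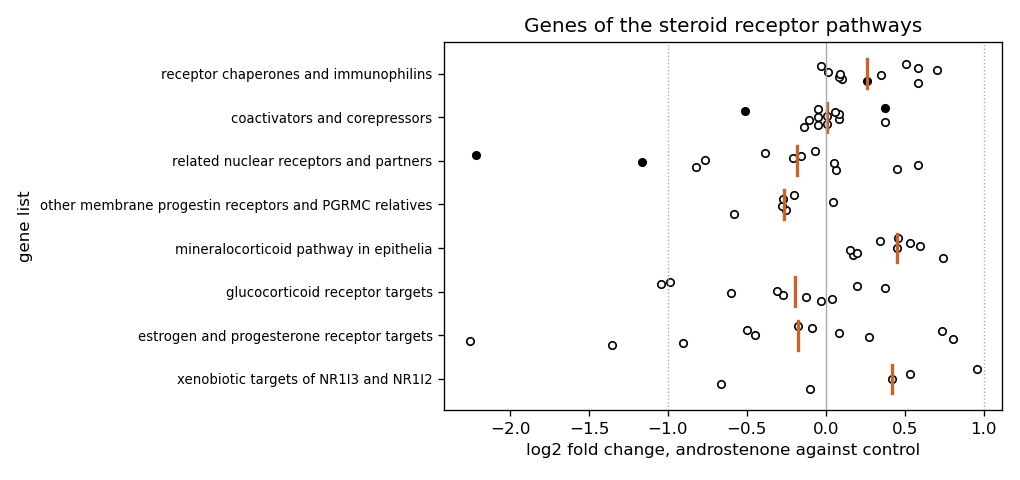
Log2 fold change of each tested gene (points) in 8 lists of steroid receptor partners and targets, androstenone treatment group against control group, with list medians as orange lines; filled points are genes whose libraries do not overlap between the groups, and dotted lines mark -1 and 1. The filled points at the left are RXRG at -2.22 and NR1H4 at -1.16.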

How the data were processed

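RNA-seq libraries (NEBNext Ultra kit) of 4 control and 4 androstenone samples were analysed. The authors cleaned reads with fastp 0.23.1, quantified them with Kallisto 0.48.0 on Sscrofa11.1 transcripts (Ensembl release 108), and deposited, for each gene, its estimated count and its TPM. In 17848 of the 17850 genes above 0 in all libraries, the deposited count equalled the TPM times 1 length per gene and 1 factor per library (tolerance 1e-04 on the natural log scale), so that counts and TPM are not independent measurements and no library-specific length remains in the counts. Totals were 4178330 to 100685566 counts. Tests therefore rest on scaled counts, and Poisson and binomial intervals are approximate and cover counting error only.

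Counts were rounded, and the 21318 genes with at least 1 count were tested with edgeR 4.0.16 (quasi-likelihood test, TMM, condition as the only term) in R 4.3.3, adjusted by Benjamini-Hochberg. The standard error is the absolute log2 fold change divided by the square root of F, and intervals are 95%. Ratios used log2(TPM + 0.1) and exact permutation tests in Python 3.11.15. Alternatives were edgeR's exact and likelihood ratio tests, DESeq2 1.42.0, limma 3.58.1 (voom, and log2(TPM + 0.1) or log2(TPM + 1)), RLE, library size alone, filterByExpr, no filter, unrounded counts, the replicate number as a block, and each library left out. Fits without control 1 and control 4, and with ciliated or bone genes as a covariate, were added after seeing the data. The edgeR, DESeq2 and voom fits were tested on simulated counts. The receptors, gene lists and tests were chosen with earlier results of these data known. Genes named singly are the receptors, the genes of each pathway list past the unadjusted cutoff or otherwise the 2 of smallest p, and the 3 most alike in pattern to each receptor with a mean of at least 0.5 CPM. Further genes of the lists were named after their values were seen. Names came from a table matching 15527 of 22516 identifiers. Receptor sequences were not used here. A gene of the related receptor list is not reported singly here.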

Additional observations from a re-analysis of the deposited data

Results flagged for a closer look

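Of 24 groups of 4 libraries checked for a sample far from the others (9 receptors and 3 ratios in each group), 1 was flagged, where chance flags about 1 in 20. NR3C2 in control 3 was at 27.9 CPM, while the other control libraries lay between 10.1 and 12.9 CPM, so that the gap took up 0.84 of the group's range. Control 3 also held the largest sum of ciliated cell genes, 3496 CPM, and the part of those cells in the value was not tested.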

How the results depend on the processing

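GPER1 had a negative log2 fold change in all 24 fits, from -1.51 to -0.63, and passed the unadjusted cutoff in 20. It failed with limma on log2(TPM + 1) (-0.86), without control 4 (-0.97), without control 1 and control 4 (-0.99) and with bone genes as a covariate (-0.63). The number of receptors called was 1, went to 0 with limma on log2(TPM + 1) and without control 1 and control 4, and ranged from 0 to 2 with single libraries left out; the 2 came without control 3, where NR1I3 was added. After adjustment it was 0, and 1 in DESeq2. With bone genes as a covariate ESR2 was called in place of GPER1.

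The 1368 genes called became 295 with limma on log2(TPM + 1), 727 with log2(TPM + 0.1), 793 with the bone covariate, 881 without control 1 and control 4, and 867 (without androstenone 1) to 2414 (without control 3) with single libraries left out. After adjustment, 0 became 670 in DESeq2, 200 in the likelihood ratio test, 157 in the exact test, 150 with the ciliated cell covariate, 4 with log2(TPM + 1), 2 with log2(TPM + 0.1) or the bone covariate, and 1 with library size alone. The cause was not tested. Against TMM, RLE and library size alone moved the median of all genes by -0.023 and 0.036.

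The replicate numbers did not pair the libraries. Same-numbered deviations from the group means had r of -0.035, -0.50, -0.60 and 0.17 over 18347 genes, and 0 of 8 libraries correlated best with their own number. With the replicate block, 583 genes were called, and GPER1 was still called (-1.17).

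Near 0, signs turned. ESR1, at 0.027, was at -0.0045 in DESeq2, -0.0034 with the replicate block, -0.14 in voom, -0.086 and -0.063 on log2(TPM + 0.1) and log2(TPM + 1), -0.12 with the ciliated covariate and -0.23 without control 1 and control 4, and ranged from -0.20 to 0.19 with single libraries left out. NR3C2, at 0.049, was at -0.21 with the bone covariate and -0.25 without control 1 and control 4, and ranged from -0.12 to 0.48 with single libraries left out. PGRMC2, at -0.13, was at 0.35 with the bone covariate and 0.15 without control 1 and control 4, and ranged from -0.32 to 0.12. The difference in the log2 ratio of ESR1 to ESR2, 0.48, turned to -0.051 without control 1, and ranged to 0.72. It was 0.55 with 0.01 TPM added to each gene and 0.19 with 1 TPM added. The deposited counts limit PGR, with 21 counts in all, and control 1, with the lowest total.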
